A study of Homo sapiens with 9 samples.

Results

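Interferon-stimulated genes are genes whose transcription is switched on by interferons. A set of 38 of them, chosen by gene symbol from those known as interferon-inducible, was read from a table of 20777 genes measured by RNA-seq in LX-2 cells, and all 38 were listed there. LX-2 cells descend from human hepatic stellate cells, which make collagen in the injured liver, and were immortalised. The study compared 3 groups of 3 libraries each: control cells, for which the labels give no treatment, cells given TGF-β, and cells given both TGF-β and uridine. TGF-β, the cytokine that activates stellate cells, was given first, and the medium was then replaced with medium containing uridine, a pyrimidine nucleoside, in the third group. The labels place both treatments at day 1, give the genotype of all 9 libraries as "wide type", and name no interferon for any group, so that all values are those of cells to which no interferon was added.

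Cells secrete interferons after they sense viral nucleic acid. Type I and type III interferons bind cell surface receptors, the receptor-bound kinases JAK1 and TYK2 phosphorylate STAT proteins, STAT2 among them, and these join IRF9 in a complex that binds a DNA element called the interferon-stimulated response element (ISRE). Interferon-γ acts on another element, the gamma-activated site (GAS). The induced proteins hinder viruses at the membrane, at viral RNA and at translation, and several are also made at a low level in cells that have not met interferon.

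The promoters of the set carried the letters of the ISRE more often than promoters in general. RefSeq promoters (GRCh38.p14, from 250 bases before to 50 bases after the start of transcription) were at hand for 30 of the 38 genes. The ISRE core (GAAA, any 2 bases, then GAAA), read on both strands, was found in 21 of these 30 (70%), compared with 1195 of all 27305 genes with a promoter (4.38%). The GAS core TTCNNNGAA, which reads the same on both strands, was found in 9 of the 30 (30%), compared with 9.38% of all genes. Both cores were found in BST2, IFI27, IFITM1, MX1 and PARP14, and shared letters in 4 of these 5 (all but PARP14). No promoter was at hand for IFIT2, IFITM2, MX2, OAS2, OASL, IRF7, USP18 and TRIM22. A match is only a match of letters. Below are windows of 30 bases for the 4 genes that changed in at least 1 comparison and have a promoter in the table, for IFITM3 as the most abundant gene of the set, and for IFIT1 as an interferon-stimulated gene of low level in these cells. The capitals mark the ISRE core, and each sequence runs 5′ to 3′ on the strand of its gene.
ISG15: gcctcggGAAAGGGAAACCGAAActgaagc
BST2: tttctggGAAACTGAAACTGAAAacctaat
IFITM1: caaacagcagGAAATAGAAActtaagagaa
IFITM3: agGAAAAGGAAActgttgaGAAACCGAAAc
OAS3: gttcggagagccgggcggGAAAACGAAAcc
IFIT1: ttagTTTCACTTTCcccTTTCGGTTTCcct
The ISG15 window lies at chr1:1013377-1013406 on the plus strand, the BST2 window at chr19:17405738-17405767 on the minus strand, the IFITM1 window at chr11:313990-314019 on the plus strand, the IFITM3 window at chr11:320885-320914 on the minus strand, the OAS3 window at chr12:112938444-112938473 on the plus strand and the IFIT1 window at chr10:89392503-89392532 on the plus strand. In ISG15 and BST2 a pair of overlapping cores stood in 1 run. In IFITM3 the 2 cores were apart. In IFIT1 both cores were on the opposite strand, so that each reads TTTC, 2 other bases and TTTC. All 6 windows end before the RefSeq start of transcription, the nearest being that of OAS3, whose last base is 1 base before it. GENCODE v29 places some starts further upstream, and all 30 bases of the IFITM1, IFITM3 and OAS3 windows lie in exons annotated there. All 30 bases of the BST2 window do as well, but that window lies outside the annotated BST2 gene (17402939 to 17405648). Exons of any gene on either strand were counted.

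The libraries held 40539751 to 41467124 counted reads each. Control replicate 1 stood apart from the other libraries: its TMM factor, which scales a library for composition, was 0.820 against 0.930 to 1.16 in the other 8, and its slope of log2 CPM (the normalized count scaled to library size) on GC content was the steepest, 13.8 against 4.08 to 10.5. Of 5 targets of TGF-β signalling taken as a check of the treatment, 3 rose with TGF-β, PMEPA1 among them by 2.59 ± 0.09 on the log2 scale, whereas SMAD7 (0.76 ± 0.19, edgeR adjusted p of 0.0720) and SKIL (0.51 ± 0.57, 0.939) did not pass. Of the stellate cell and fibroblast markers, VIM, SPARC, TIMP1 and COL1A1 had at least 1794 reads in every library, whereas COL1A2 and RELN had 0 or 1. Hepatocyte markers were near 0, with at most 12 reads. Of 5 leukocyte markers listed, CD14 had at most 12 reads and LYZ at most 2, and the summed level of all 5, which was almost entirely CD68 and CSF1R, was 34.8 to 48.5 CPM in control, 75.4 to 84.2 CPM with TGF-β and 62.8 to 78.4 CPM with TGF-β and uridine. The part of these markers in the results was not tested. In bulk RNA, fewer cells that express a gene and less RNA per cell cannot be told apart. The labels do not say that the libraries of a group came from separate cultures, so p-values measure only the spread between these libraries.

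The interferon-stimulated genes of LX-2 cells differed widely in level. Per length of transcript, 6 had a mean of at least 10 FPKM (the authors' unit of fragments per length of transcript and library size) over the 9 libraries, 8 had 1 to 10 FPKM, 10 had 0.1 to 1 FPKM and 14 were below 0.1 FPKM. The highest was IFITM3, with a mean of 1803 FPKM. It was followed by IFITM2 (319 FPKM), BST2 (138 FPKM), IFITM1 (98.6 FPKM), ISG15 (26.1 FPKM) and IFI35 (16.0 FPKM). The IFITM proteins hold back the fusion of viruses with cell membranes, and BST2, or tetherin, holds budding virus particles at the cell surface. In each library these 4 genes gave 91.5% to 94.2% of all reads of the set, and IFITM3 alone 61.4% to 64.5%. Some genes that interferon induces strongly in many cells were almost silent. RSAD2, whose product viperin blocks viral replication, had at most 7 reads in a library, CMPK2 at most 4 and XAF1 at most 2. IFIH1, which codes for the RNA sensor MDA5, had at most 8 reads.

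**Figure D1:**
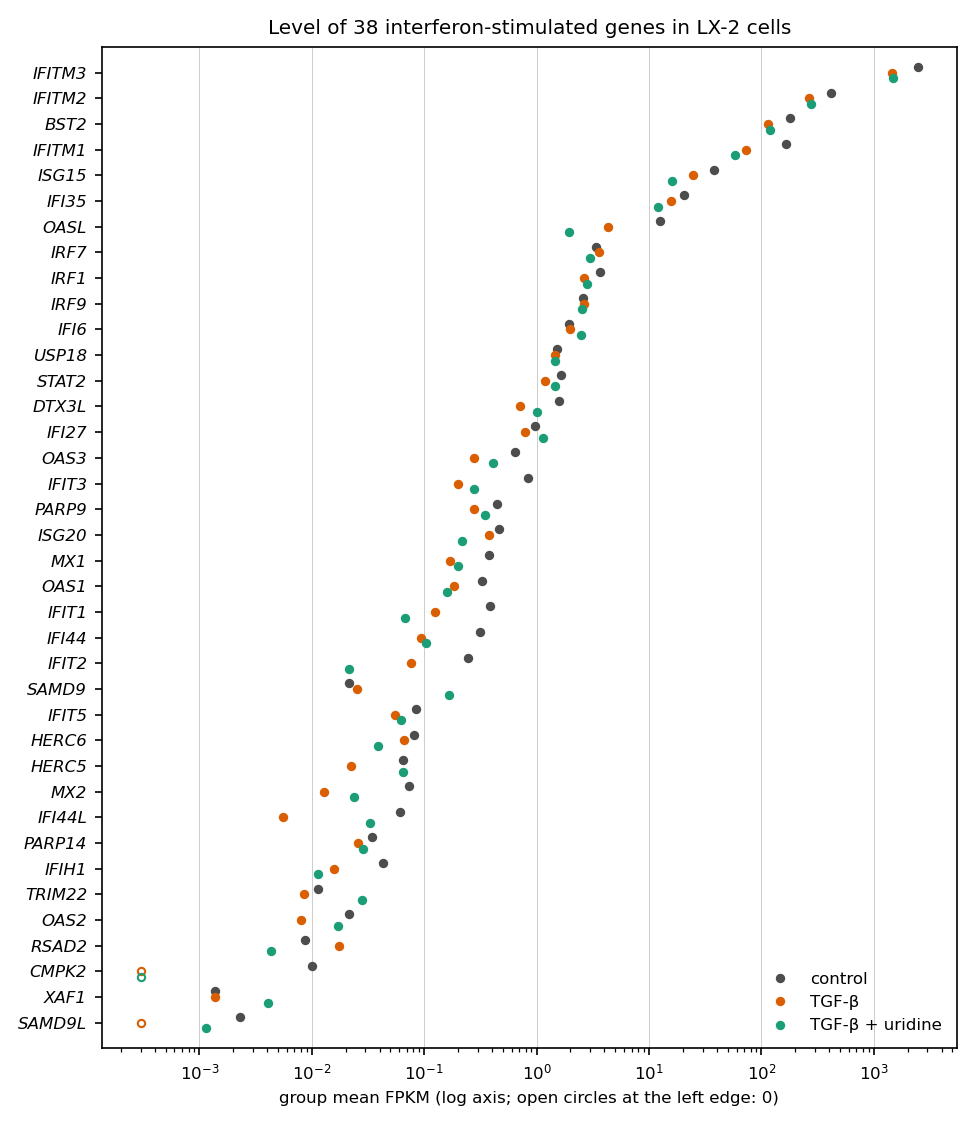
Mean FPKM of the 38 interferon-stimulated genes in each group of 3 LX-2 libraries, on a log axis, ordered by the mean over all 9 libraries; open circles at the left edge stand for a mean of 0. The genes run from IFITM3 at 1803 FPKM down to genes listed at or close to 0, and the grey points (control) lie to the right of the others for all 6 genes with a mean of at least 10 FPKM.

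Reads of the 38 genes together made up a larger share of each control library than of any treated library. The share was 0.271%, 0.235% and 0.214% of all counted reads in control replicates 1, 2 and 3. It was 0.149%, 0.139% and 0.138% with TGF-β, and 0.138%, 0.150% and 0.141% with TGF-β and uridine. The control shares did not overlap with those of the treated groups, which lay within the same range. Since IFITM3 carries most of these reads, the share follows that gene.

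With TGF-β, 4 interferon-stimulated genes fell and 0 rose. OASL, an antiviral protein related to the oligoadenylate synthetases, fell to 34.8% of control, IFITM1 to 43.5%, OAS3, an enzyme whose oligoadenylates activate RNase L, to 43.3%, and BST2 to 63.6%. These are 4 of the 31 genes of the set with enough reads to be tested, while 0.964% of all 13384 tested genes were lower and 2.42% were higher at an adjusted p under 0.05 (edgeR quasi-likelihood test). At an unadjusted p under 0.05, 15 of the 31 were lower and 0 were higher, against 5.43% and 6.69% of all tested genes. In 12 of the 31 every TGF-β library lay below every control library (7.96% of all tested genes) and in 0 every one lay above (9.72%). The log2 fold change was below 0 for 28 of the 31 and above 0 for 3 (58.9% and 41.1% of all tested genes), with a median of -0.69 beside -0.05 over all tested genes. A gene could pass the read filter through the reads of 1 group alone. Among the 22 genes with at least 10 reads in every library, 20 had a log2 fold change below 0 and the median was -0.67. The other 7 genes of the set (IFIH1, OAS2, RSAD2, CMPK2, XAF1, SAMD9L and TRIM22) had at most 11 reads in a library and were not tested.

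The gene with the largest fall among those called was OASL (chr12, 121019111 to 121039242, minus strand). Its normalized CPM was 68.8, 54.6 and 48.7 in control, 18.9, 19.9 and 21.1 with TGF-β, and 7.81, 12.2 and 6.60 with TGF-β and uridine. Every control library was above every TGF-β library, and every TGF-β library was above every library with uridine. OASL fell by 1.52 ± 0.23 (log2 fold change ± SE, n = 3 per group) with TGF-β, with an edgeR adjusted p of 0.00658. Before normalization OASL had 2322, 2291 and 2322 reads in control, 750, 822 and 866 with TGF-β, and 336, 467 and 292 with both agents. The control libraries thus differed in OASL mainly after normalization.

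The other OAS genes were at much lower levels. OAS3 (chr12, 112938352 to 112973249) had 5.04, 4.10 and 3.73 CPM in control, 1.43, 2.37 and 1.75 CPM with TGF-β, and 3.09, 2.51 and 2.39 CPM with TGF-β and uridine. The 3 groups did not overlap in CPM, the group with uridine lying between the other 2. Before normalization the treated groups overlapped, with 57, 98 and 72 reads with TGF-β and 133, 96 and 106 with both agents. OAS3 fell by 1.21 ± 0.26 with TGF-β (edgeR adjusted p of 0.0396). OAS1 had 51, 48 and 68 reads in control, 33, 24 and 37 with TGF-β and 32, 24 and 25 with both agents. Control libraries were above all treated libraries in CPM, but the log2 fold change of -0.82 ± 0.29 for TGF-β had an edgeR adjusted p of 0.238.

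Of the membrane proteins, all 4 were lower in each TGF-β library than in each control library, and 2 passed the test. IFITM1 had 144, 110 and 85.0 CPM in control, 50.4, 48.6 and 48.4 CPM with TGF-β, and 37.6, 42.3 and 35.4 CPM with TGF-β and uridine. The values fell into 3 groups without overlap, and the TGF-β libraries differed least among themselves. IFITM1 fell by 1.20 ± 0.18 with TGF-β (edgeR adjusted p of 0.00614). BST2 (chr19, 17402939 to 17405648, minus strand) had 227, 170 and 151 CPM in control, 116, 113 and 119 CPM with TGF-β, and 114, 127 and 111 CPM with both agents. Its control libraries lay above all treated libraries, and the treated groups overlapped. BST2 fell by 0.65 ± 0.15 with TGF-β (edgeR adjusted p of 0.0489).

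IFITM3 and IFITM2 carried the most reads but did not pass the threshold. IFITM3 had 2134, 1421 and 1138 CPM in control, 965, 868 and 852 CPM with TGF-β, and 831, 1033 and 827 CPM with TGF-β and uridine. IFITM2 had 585, 394 and 321 CPM in control, 299, 258 and 246 CPM with TGF-β, and 259, 315 and 250 CPM with both agents. In both genes the control libraries were above the treated ones and differed most among themselves, with control replicate 1 the highest. For the TGF-β effect the log2 fold change was -0.81 ± 0.22 for IFITM3 (edgeR adjusted p of 0.0943) and -0.69 ± 0.21 for IFITM2 (0.148). The annotated region of IFITM1 (chr11, 313506 to 315272) lies within that of IFITM2 (307631 to 315272) over 1767 bases, the IFITM genes are near copies of each other, and the sources used here do not say how shared reads were counted, so the values of single IFITM genes are uncertain.

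**Figure D2:**
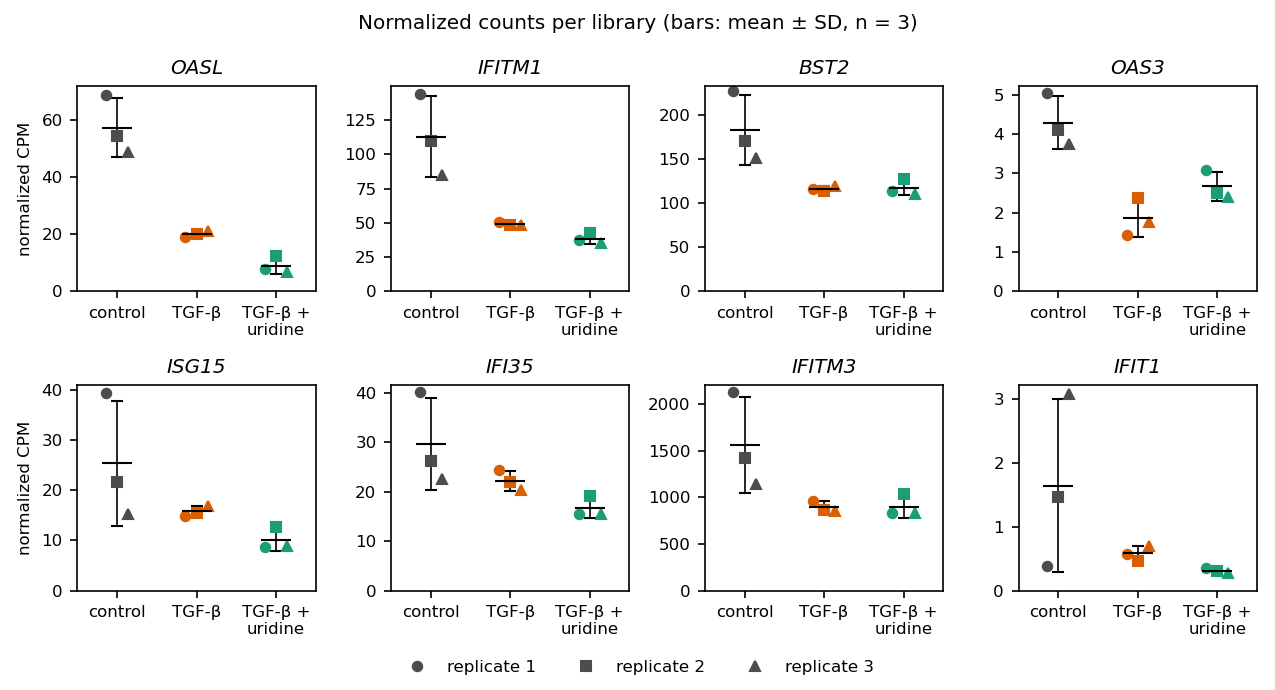
Normalized CPM of 8 interferon-stimulated genes in each of the 9 LX-2 libraries, with the mean ± SD of each group of 3 as bars; each panel has its own axis from 0, and the marker shape gives the replicate number. OASL steps down from control to TGF-β to TGF-β + uridine without overlap, OAS3 lies between the other groups with uridine, and IFIT1 is low in control replicate 1 and high in control replicate 3.

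The fall of OASL and IFITM1 held in each of 24 other settings of the analysis, whereas BST2 and OAS3 each passed in 12 of them (OAS3 was tested in 22). These 24 include the same fit at an unadjusted p under 0.05 and library totals without normalization factors, chosen after seeing the data. Leaving out control replicate 1 gave 9 lower genes (BST2, DTX3L, IFI44L, IFIT1, IFIT3, IFITM1, IFITM3, OAS3 and OASL), leaving out control replicate 3 gave 6, and leaving out any other library left 2, OASL and IFITM1. Of all tested genes, 2.75% were lower without control replicate 1, 1.29% without control replicate 3 and 0.263% to 0.672% without any other library. A model with a term for the GC slope of each library called 14 lower, against 8.69% of all genes under that model, and 0 higher.

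The IFIT genes, whose proteins bind foreign RNA and hinder its translation, gave no call, and their control libraries differed widely. IFIT1 had 13, 62 and 147 reads in control, 23, 19 and 29 with TGF-β and 15, 12 and 12 with TGF-β and uridine. Control replicate 1 lay below all TGF-β libraries in CPM, while control replicates 2 and 3 lay above them. IFIT3 had 25, 85 and 158 reads in control, 26, 15 and 23 with TGF-β and 38, 20 and 31 with both agents. Its log2 fold change with TGF-β was -1.95 ± 0.53 (edgeR adjusted p of 0.0979). IFIT2 had 6, 24 and 73 reads in control, 14, 0 and 18 with TGF-β and 2, 1 and 6 with both agents, and again control replicate 3 was the highest library and control replicate 1 the lowest of its group. IFIT5 had 1 to 30 reads per library.

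The remaining effectors also gave no call for TGF-β. MX1, a dynamin-like GTPase that traps viral nucleocapsids, had 3.41, 1.98 and 1.49 CPM in control, 1.11, 0.605 and 1.29 CPM with TGF-β, and 1.67, 1.07 and 0.723 CPM with both agents. Its TGF-β libraries were all below control, with a difference of -1.19 ± 0.45 on the log2 scale (edgeR adjusted p of 0.286). MX2 had 11, 21 and 8 reads in control, 0, 2 and 5 with TGF-β, and 2, 10 and 1 with both agents. ISG20, an exonuclease, had 2.52, 1.50 and 1.38 CPM in control, 1.23, 1.67 and 1.34 CPM with TGF-β, and 1.12, 0.732 and 0.565 CPM with TGF-β and uridine. The uridine libraries of ISG20 were below all others. IFI35 had 40.2, 26.3 and 22.5 CPM in control, 24.4, 21.9 and 20.4 CPM with TGF-β, and 15.5, 19.1 and 15.6 CPM with both agents, and here too the uridine libraries were the lowest. IFI44L had 1, 11 and 32 reads in control, 1, 1 and 2 with TGF-β, and 4, 5 and 15 with both agents, a range that control alone covered. Its neighbour on chromosome 1, IFI44, had 7, 45 and 49 reads in control and 3 to 18 in the treated libraries. IFI6 had 45 to 104 reads per library and IFI27, a mitochondrial protein, 12 to 50, with control replicate 1 the lowest for IFI6 and control replicate 3 the lowest for IFI27.

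ISG15 codes for a ubiquitin-like protein that is attached to other proteins during the interferon response. It had 39.4, 21.6 and 15.3 CPM in control, 15.0, 15.5 and 17.0 CPM with TGF-β, and 8.72, 12.6 and 8.88 CPM with TGF-β and uridine. The control and TGF-β groups overlapped, and the uridine libraries were below both. For TGF-β alone the log2 fold change was -0.69 ± 0.32 (edgeR adjusted p of 0.448). USP18, which removes ISG15 from proteins and restrains the interferon receptor, had 102 to 162 reads per library and a log2 fold change of -0.07 ± 0.28 for TGF-β (0.998). HERC5, a ligase for ISG15, had 1 to 21 reads per library, and HERC6 had 1 to 22.

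Of the 4 transcription factors of the set, 0 passed the test for TGF-β, and 2 were nevertheless lower than control in every TGF-β library. IRF9, the DNA-binding part of the STAT complex, had a log2 fold change of -0.01 ± 0.24 with TGF-β, and IRF7, which induces interferon-α genes, one of 0.05 ± 0.27 (edgeR adjusted p of 0.998 each). STAT2 had 7.97, 9.33 and 8.18 CPM in control, 6.06, 6.92 and 5.53 CPM with TGF-β, and 6.74, 7.11 and 8.18 CPM with both agents. IRF1, a factor that interferon-γ induces, had 14.6, 12.5 and 12.1 CPM in control, 10.0, 9.73 and 8.62 CPM with TGF-β, and 9.88, 11.1 and 8.76 CPM with both agents. STAT2 and IRF1 were those below control in every TGF-β library, with log2 fold changes of -0.46 ± 0.17 (edgeR adjusted p of 0.265) and -0.47 ± 0.16 (0.202). The ADP-ribosylation genes DTX3L and PARP9, which lie head to head and share 340 annotated bases, had 133 to 586 and 56 to 240 reads per library, with their highest values in control replicate 3. PARP14, a related enzyme, had 6 to 14 reads per library.

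**Figure D3:**
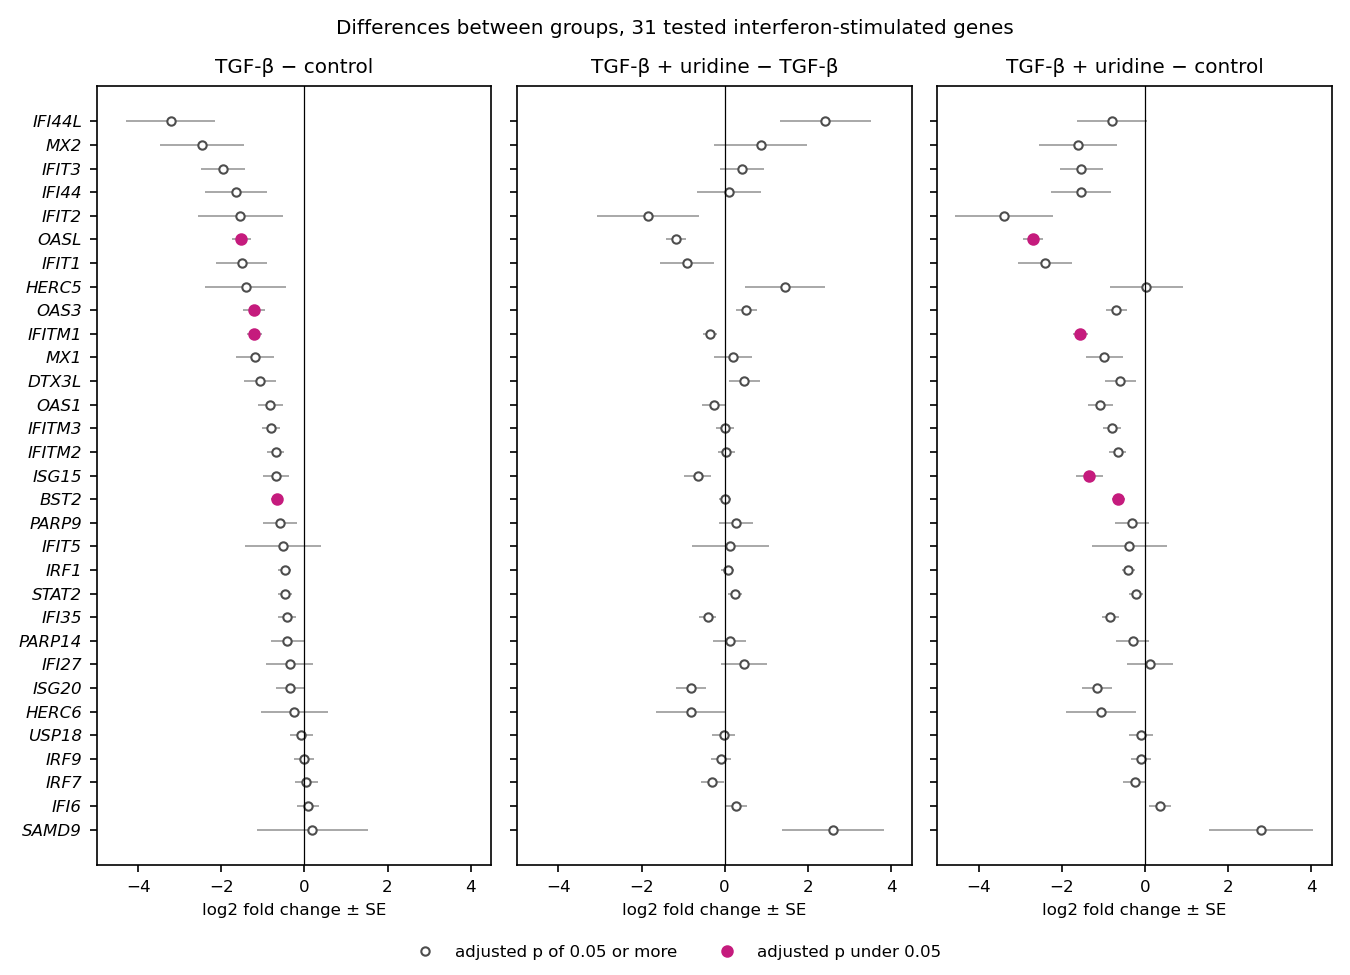
Log2 fold change ± SE from the edgeR model for the 31 tested interferon-stimulated genes in the 3 comparisons, ordered by the TGF-β effect, with filled points for genes with an adjusted p under 0.05. The filled points are 4 genes in each comparison with control, all to the left of 0, and 0 in the comparison of TGF-β + uridine with TGF-β; the longest bars belong to genes with few reads.

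Adding uridine to TGF-β gave 0 calls among the interferon-stimulated genes. At an adjusted p under 0.05 with edgeR, 0 of the 31 tested genes were lower and 0 higher (0.0448% and 0% of all tested genes), and at an unadjusted p under 0.05 there was 1 lower gene, OASL, and 0 higher (4.14% and 4.65%). DESeq2 called 1 lower gene, again OASL, and limma on FPKM called 1 lower gene without a filter and 2 with one. OASL was at 44.4% of the TGF-β group, with a difference of -1.17 ± 0.23 on the log2 scale (edgeR adjusted p of 0.169), and it was lower in 3 of 3 libraries. It passed in 10 of the 24 other settings, among them the unadjusted p of the same fit and library totals without normalization factors (chosen after seeing the data). All uridine libraries lay below all TGF-β libraries in 7 of the 31 genes (OASL, ISG20, ISG15, IFITM1, IFI35, IFIT1 and IRF7) and above in 2 (OAS3 and IFI44L), while this was so for 12.8% of all tested genes in each direction. The log2 fold change was below 0 for 12 genes and above 0 for 19 (46.6% and 53.4% of all tested genes), and its median was 0.07 beside 0.02 over all tested genes.

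IFITM3, IFITM2 and BST2, the genes with the highest mean FPKM, had almost the same level in both treated groups. IFITM3 had a log2 fold change of 0.00 ± 0.21, BST2 of 0.02 ± 0.15 and IFITM2 of 0.04 ± 0.21 for uridine. For ISG15 it was -0.65 ± 0.32 (edgeR adjusted p of 0.629), for IFITM1 -0.36 ± 0.18 (0.633), for IFI35 -0.41 ± 0.21 (0.662) and for OAS3 0.52 ± 0.26 (0.632). With the GC slope term in the model, 4 genes were called lower (IFI35, IFITM1, ISG15 and OASL) and 0 higher, against 9.09% of all genes lower under that model. One value stood alone: SAMD9, a restrictor of viral translation, had 127 reads in TGF-β + uridine replicate 3 and 2 to 11 reads in the other 8 libraries, so its log2 fold change of 2.60 ± 1.23 is that of a single library.

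Compared with control, cells with TGF-β and uridine had 4 lower interferon-stimulated genes and 0 higher ones. OASL fell to 15.5% of control, IFITM1 to 34.0%, ISG15 to 39.7% and BST2 to 64.3%. Of all tested genes, 2.44% were lower and 2.89% higher. On the log2 scale OASL fell by 2.69 ± 0.24 (edgeR adjusted p of 0.00038), IFITM1 by 1.56 ± 0.18 (0.00153), BST2 by 0.64 ± 0.15 (0.0414) and ISG15 by 1.33 ± 0.32 (0.0481). At an unadjusted p under 0.05, 14 of the 31 tested genes were lower and 0 higher, against 8.55% and 9.08% of all tested genes. The groups did not overlap in 13 genes that were lower and in 0 that were higher (9.2% and 10.5% of all tested genes). The log2 fold change was below 0 for 27 of the 31 and above 0 for 4 (51.4% and 48.6% of all tested genes), with a median of -0.68 beside -0.01. Here too, a gene in these counts could pass the read filter through the reads of 1 group alone. Among the 22 genes with at least 10 reads in every library, 20 had a log2 fold change below 0 and the median was -0.67. The comparison of both agents with control uses the same control libraries as that of TGF-β with control, so the 2 are not independent of each other.

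Among genes that fell short of the threshold in this comparison, the log2 difference of OAS1 was -1.07 ± 0.29 (edgeR adjusted p of 0.0763), that of IFI35 -0.83 ± 0.21 (0.0634), that of IFIT1 -2.40 ± 0.64 (0.0707) and that of ISG20 -1.16 ± 0.36 (0.119). OAS3, which was called for TGF-β alone, had -0.68 ± 0.26 (0.194). IFI6, a protein of the endoplasmic reticulum, and IFI27 were among the 4 genes with a positive log2 fold change, with 0.36 ± 0.26 and 0.12 ± 0.55. OASL and IFITM1 passed in each of the 24 other settings, ISG15 in 14 and BST2 in 13. Without control replicate 1 the number of lower genes was 9, without control replicate 3 it was 7, and without any other library it was 2 (OASL and IFITM1). Of all tested genes, 8.16% were lower without control replicate 1, 2.94% without control replicate 3 and 0.846% to 1.37% without any other library. With the GC slope term the number of lower genes of the set was 15, against 13.3% of all genes lower under that model.

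Control replicates 1 and 3 differed in these genes by the GC content of the genes. These 2 libraries, control replicates 1 and 3, also had the steepest and the least steep slope of log2 CPM on GC content over all tested genes with a GC value (13.8 and 4.08). The pattern is thus not particular to this set, and the counts below were not made for all tested genes. The log2 difference between control replicates 1 and 3 had a Pearson r of 0.69 with the GC content of the longest transcript across the 31 tested genes, which share the 2 libraries and are not independent replicates. Of the 11 tested genes with a GC content below 45%, 9 were lower in control replicate 1 than in control replicate 3, and of the 17 with at least 50%, 15 were higher; these limits were chosen after the values were seen. IFIT1, at 42.2% GC, was among the first kind and ISG15, at 63.4%, among the second. OASL (51.4% GC), IFITM1 (52.5%) and OAS3 (54.3%) were also among the second. Beyond the counts given with the GC slope term, the part of GC content in the comparisons between groups was not tested.

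**Figure D4:**
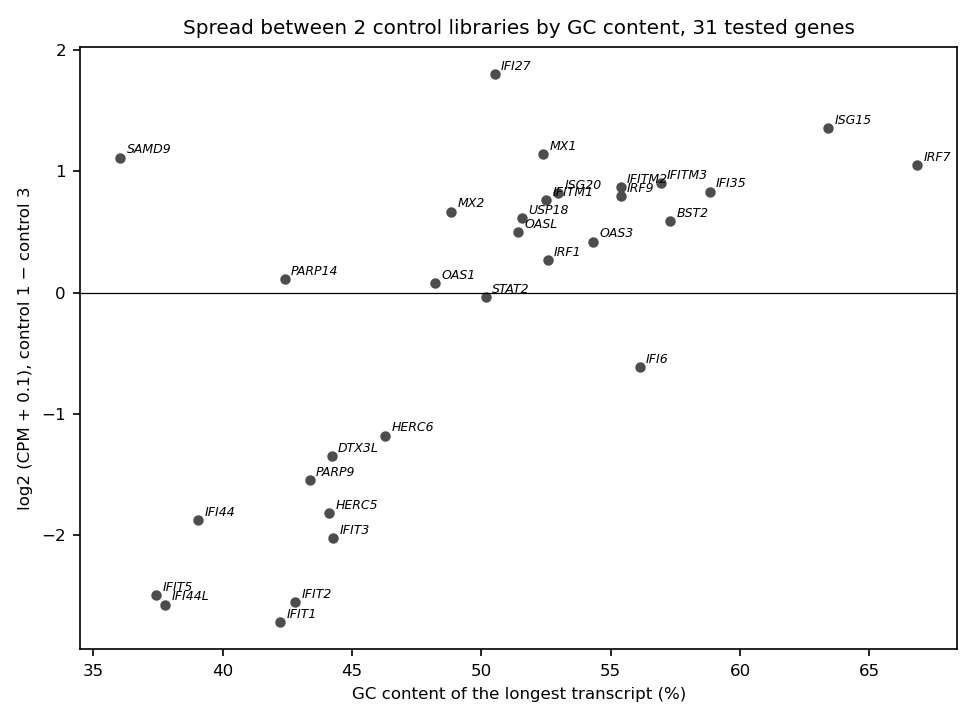
Difference in log2(CPM + 0.1) between control replicates 1 and 3 against the GC content of the longest transcript, for the 31 tested interferon-stimulated genes, each a labelled point. Of 11 genes below 45% GC 9 lie below 0, and of 17 genes at 50% GC or above 15 lie above 0. The same counts were not made for all tested genes.

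Among the other genes for interferon receptors, kinases, sensors and STAT or IRF factors there were 0 calls. Of all tested genes, 0.964% were called lower and 2.42% higher with TGF-β, so few calls could arise in lists of this size. Of 21 interferon genes, only IFNE and IFNL1 were in the table, with at most 9 and 3 reads in a library. All 9 genes for receptors and their kinases were tested, and 0 were called in any of the 3 comparisons. TYK2 and JAK1 had the highest levels among them, 16.9 and 11.7 FPKM, and their log2 fold changes with TGF-β were -0.10 ± 0.20 and 0.10 ± 0.28. Of 18 genes for nucleic acid sensors and STAT or IRF factors, 13 were tested and 0 were called in any comparison. With TGF-β, 2 of the 13 (DHX58 and IRF2) were lower and 0 higher at an unadjusted edgeR p under 0.05 (5.43% and 6.69% of all tested genes). Every TGF-β library lay below every control library in 3 and above in 0 (7.96% and 9.72%). The log2 fold change was below 0 for 11 and above 0 for 2 (58.9% and 41.1%), with a median of -0.28. IRF3, which is activated by nucleic acid sensors, had 29.3 FPKM and STAT3, which cytokines of the interleukin-6 family activate, had 25.8 FPKM.

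Among 10 genes that restrain interferon signalling, all of them tested, 1 fell with TGF-β and 0 rose (0.964% and 2.42% of all tested genes). The gene that fell was SOCS3, an inhibitor of JAK kinases. It had 52.6, 42.3 and 39.8 CPM in control, 30.03, 29.2 and 29.8 CPM with TGF-β, and 32.8, 33.8 and 32.9 CPM with both agents. Control libraries were above all others. SOCS3 fell by 0.60 ± 0.12 with TGF-β (edgeR adjusted p of 0.0295), and its difference of -0.44 ± 0.12 in the combined comparison had an adjusted p of 0.0767. PTPN1, a phosphatase that acts on JAK kinases and the highest gene of this list at 23.4 FPKM, had a log2 fold change of 0.07 ± 0.09 with TGF-β.

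Of 18 genes for antigen presentation by MHC class I, 16 were tested. Among these, 1 fell and 0 rose with TGF-β (0.964% and 2.42% of all tested genes). The combined comparison gave 2 lower and 0 higher (2.44% and 2.89%). At an unadjusted edgeR p under 0.05, 7 of the 16 were lower and 1 higher with TGF-β (5.43% and 6.69% of all tested genes). In the combined comparison these numbers were 6 and 1 (8.55% and 9.08%). Every TGF-β library lay below every control library in 8 of the 16 and above in 1 (7.96% and 9.72%). TAPBP, or tapasin, which loads peptides onto MHC class I, fell by 0.48 ± 0.10 with TGF-β (edgeR adjusted p of 0.0302) and by 0.45 ± 0.10 with TGF-β and uridine (0.0325). PSME1, a subunit of the proteasome activator PA28, fell by 0.75 ± 0.17 with both agents (0.0408). PSME2, at 67.9 FPKM, had log2 fold changes of -0.57 ± 0.17 with TGF-β and -0.61 ± 0.17 with both agents, neither of which passed (edgeR adjusted p of 0.155 and 0.0913).

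Of 47 further interferon-inducible genes, 44 were listed and 32 were tested. With TGF-β 1 fell and 0 rose, beside 0.964% and 2.42% of all tested genes, and with TGF-β and uridine 4 fell and 0 rose, beside 2.44% and 2.89%. At an unadjusted edgeR p under 0.05, 5 were lower and 0 higher with TGF-β (5.43% and 6.69% of all tested genes). Against control, 9 were lower and 3 higher at that threshold with both agents (8.55% and 9.08%). PARP10, an ADP-ribosyltransferase, had 4.86, 3.48 and 3.40 CPM in control, 1.66, 1.23 and 1.85 CPM with TGF-β, and 1.12, 1.20 and 1.42 CPM with both agents. Control libraries were above all others, and PARP10 fell by 1.30 ± 0.26 with TGF-β and by 1.64 ± 0.27 with both agents (edgeR adjusted p of 0.0295 and 0.00822). UBE2L6, the enzyme that passes ISG15 to its ligases, had 9.80, 6.64 and 5.91 CPM in control, 4.78, 5.52 and 5.21 CPM with TGF-β, and 3.56, 3.16 and 2.67 CPM with both agents. The 3 groups of UBE2L6 did not overlap. It fell by 1.25 ± 0.24 with both agents (edgeR adjusted p of 0.0174), and SP110, a nuclear body protein, by 1.06 ± 0.24 (0.0359) and LGALS3BP, a secreted glycoprotein, by 0.47 ± 0.11 (0.0396). IFI30 and WARS1, at 191 and 81.1 FPKM, had log2 fold changes of -0.10 ± 0.14 and 0.00 ± 0.11 with TGF-β. In the comparison of TGF-β and uridine with TGF-β, 0 genes of these lists passed with edgeR at an adjusted p under 0.05, and at an unadjusted p under 0.05 there was 1 lower and 0 higher among these 32 genes and 0 lower and 1 higher among the 16 of antigen presentation, counts near the 4.14% and 4.65% of all tested genes.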

How the data were processed

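Total RNA of 9 LX-2 libraries was sequenced. The authors deposited whole-number counts of reads per gene symbol, without normalization, and FPKM values of the same 20777 genes. The submitters' processing notes name fastp, HISAT2, HTSeq, R 3.2.0 and GRCh38.p13, and the strand setting of the counting is not given in the sources used here. Groups came from the titles (control) and treatment labels. The quasi-likelihood test of edgeR 4.0.16 (R 4.3.3), after filterByExpr and TMM scaling, was applied to the counts in 1 model of all 9 libraries. Of 20777 genes, 13384 passed the filter, and p-values were adjusted over these by the Benjamini-Hochberg method, with a threshold of 0.05. All tests were two-sided. Exact permutation tests of 3 libraries against 3 cannot give a p below 0.1 and were not used for calls. The common biological coefficient of variation was 0.289. A count of 0 allows up to 3 counts, 0.0629 to 0.0889 CPM by library, for counting error only. The code was tested on simulated data.

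The members and lists were chosen with earlier results of these data known. All 38 members are named, library values are given for called members, members whose groups did not overlap and the 6 most abundant, and from each pathway list called genes and the 2 most abundant are named. Results for some genes within this rule are not reported here. Alternatives used DESeq2 1.42.0, limma 3.58.1 on log2(FPKM + pseudocount), other normalizations and filters, a replicate block, a GC slope covariate (GC values from GENCODE v29 for 12319 genes) and leaving out each library. Gene coordinates are from GENCODE v29 (GRCh38), and promoters are from RefSeq (GRCh38.p14). No 2 libraries of a group agreed within sampling noise.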

Additional observations from a re-analysis of the deposited data

How the results depend on the processing

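No gene of the set changed direction after being called, and none was called higher in any of the 24 alternatives of a comparison. The number of genes called lower for TGF-β (4) became 2 without a filter, with only the 2 groups compared or with the replicate block, 15 at an unadjusted p under 0.05, 14 with the GC slope covariate, 13 with the covariate and the block, and 2 to 9 when 1 library was left out. That number was 6 with DESeq2, with each limma fit or with library totals. It was 3 with RLE factors or with an absolute log2 fold change of at least 1 required as well. For uridine (0) it became 1 with DESeq2, at an unadjusted p, with only the 2 groups or with library totals without normalization factors (chosen after seeing the data), 2 with limma on log2(FPKM + 1) or log2(FPKM + 0.1) above a mean of 0.5 FPKM and 1 without that filter, 4 with the covariate with or without the block, and 0 to 1 when 1 library was left out. For the combined effect (4) it became 10 with DESeq2, 2 with RLE factors, only the 2 groups or the block, 14 at an unadjusted p, 7, 7 and 8 with limma in the same order, 15 with the covariate, 14 with the covariate and the block, 7 with library totals, and 2 to 9 when 1 library was left out. It was 6 with upper-quartile factors, 5 with at least 10 counts in every library and 3 with the fold change threshold. The median log2 fold change moved with limma from -0.69 to -0.36, -0.46 and -0.10 for TGF-β and from -0.68 to -0.31, -0.49 and -0.10 for the combined effect, where the pseudocount and the genes included differ by construction. With 1 library left out the medians were -0.76 to -0.54, -0.05 to 0.11 and -0.78 to -0.59 for the TGF-β, uridine and combined effects. The cause of the other changes was not tested. Replicate numbers are shared by the groups, but same-numbered libraries deviated together with correlations of only -0.21 to 0.56, so they were not taken as pairs. Over all genes the edgeR calls (129 lower and 324 higher, 6 and 0, 327 and 387 for the 3 effects) were 300 and 475, 85 and 133, 569 and 822 with library totals, 8 and 2 for uridine with upper-quartile factors, and 1163 and 1552, 1217 and 1337, 1782 and 2380 with the covariate, the highest of any setting, the lowest being 36 and 182, 0 and 0, 73 and 149. Genes with few reads, 8 of which had at most 20 in every library, are limited by depth.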

Other observations

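The control libraries of JAK1 and TYK2, kinases of interferon receptors, differed in opposite orders, which was noticed after their values were seen. JAK1 had 1158, 2872 and 4192 reads in control, 2608, 2922 and 2789 with TGF-β, and 2692, 1943 and 2825 with TGF-β and uridine. Control replicate 1 was the lowest of the 9 libraries for JAK1 and control replicate 3 the highest, so that the control group covered both treated groups. TYK2 had 4153, 3301 and 3154 reads in control, 3405, 3250 and 3502 with TGF-β, and 3475, 3526 and 3763 with both agents, with control replicate 1 the highest of the 9 libraries. JAK2, another kinase of the list, had 2, 15 and 29 reads in control, the order of JAK1. The GC content was 46.2% for JAK1, 39.2% for JAK2 and 61.3% for TYK2, and its part in these orders was not tested.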
